A study of Mus musculus with 9 samples.

Results

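Nuclei with transcripts of immune cells of the blood lineage, the leukocytes, were present in sorts that had been gated on a reporter of injured kidney tubule cells, and they are described here library by library. They were chosen by the values of 4 genes. A nucleus was included when its unique molecular identifiers (UMIs, each counting 1 captured transcript) of Ptprc, Adgre1, Csf1r and Dock2 summed to 2 or more from at least 2 of the genes, or when it had 2 or more UMIs of Ptprc. The rule was met by 181 of 14622 nuclei (1.24%) from 5 mice with ischemia-reperfusion injury (IRI). The whole series held 27738 nuclei.

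The series profiled kidney nuclei of 9 male mice aged 11 to 19 weeks by droplet single-nucleus RNA sequencing of transcript 3' ends. The injured mice carried Krt20T2A-CE; INTACTnuGFP/+, in which the promoter of Krt20, a gene of injured tubule cells, drives a tamoxifen-dependent Cre that labels nuclei with GFP. They received tamoxifen at 0.05 mg/g and bilateral clamping of the renal pedicles for 18 min, and kidneys were taken at day 28 (3 mice) or day 7 (2 mice). The controls, 3 sham-operated mice and 1 mouse without surgery, carried another reporter, Six2TGC; Rosa26rtTA; pTRE-H2BeGFP, which marks nephron cells, and ate food with doxycycline at 625 mg/kg. Kidneys were perfused until clear of blood, and Hoechst-positive, GFP-positive nuclei were sorted with a scatter gate against doublets. Reporter line and injury therefore changed together, and controls are given as a background only. Serum creatinine 48 hours after IRI was 0.488, 0.208 and 0.228 mg/dL in the day 28 mice and 0.255 and 0.133 mg/dL in the day 7 mice.

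Ptprc encodes CD45, a phosphatase on the surface of leukocytes, and Dock2 encodes an activator of Rac in leukocytes. Adgre1 encodes the macrophage surface protein F4/80, and Csf1r encodes the receptor for colony-stimulating factor 1 and interleukin 34, on which macrophage survival depends. In the kidney, resident macrophages line the tubules, and after ischemia monocytes, neutrophils and T cells enter, clear dead cells and take part in repair or scarring. Krt20 is not a known gene of leukocytes, so the nuclei were checked for depth and for tubule transcripts before they were described.

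The 4 genes entered unequally. Of the 181 nuclei, 98 had 2 or more Ptprc UMIs and 83 entered through the sum alone. Ptprc was found in 160 of them with 407 UMIs, Dock2 in 132 with 326 UMIs, Adgre1 in 74 with 127 UMIs and Csf1r in 68 with 96 UMIs. All 4 genes were present in 20 nuclei, 3 in 47, 2 in 99 and Ptprc alone in 15. The other nuclei held 63 Ptprc UMIs, 99 Dock2 UMIs, 40 Adgre1 UMIs and 431 Csf1r UMIs, so most Csf1r UMIs of the traced sorts lay outside the leukocyte nuclei. Csf1r had a UMI in 37.6% of leukocyte nuclei and in 2.63% of other nuclei, at median depths of 1263 and 2501 UMIs per nucleus.

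A list of 24 other genes active across leukocytes, called the pan-leukocyte list, was used to check the label. At least 2 UMIs of that list were found in 175 of the 181 nuclei (96.7%) and in 21.3% of other nuclei, which were deeper. Just inside the rule, the 39 nuclei with 2 UMIs of the 4 genes had 39.5 pan-leukocyte UMIs per 1e4 UMIs. The 56 nuclei with 3 or 4 UMIs had 79.0 and the 86 with 5 or more had 82.8. Just outside it, the 61 nuclei with 2 or more UMIs of only 1 gene other than Ptprc had 7.32 per 1e4, the 495 nuclei with 1 UMI had 4.32 and the 13885 with none had 2.96. These values are a description, since the rule chose the nuclei.

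The libraries of the injured mice held 2409411, 11668625 and 6091046 UMIs at day 28 and 14641038 and 8718254 UMIs at day 7. The leukocyte nuclei held 452167 UMIs, 1.04% of all, and those of day 28 mouse 1 only 6603. That library also differed in its cell barcodes, which began like those of the v2 kit, as in the controls, while the other injured libraries began like those of the v3 kit. The traced libraries shared 13 barcodes, which touched 2 leukocyte nuclei. Krt20 itself had 1 UMI in the 181 nuclei, and 4.13% of other nuclei had at least 1. A common nuclear RNA, Malat1, took 8.33%, 11.7% and 9.0% of leukocyte UMIs at day 28 and 6.42% and 6.04% at day 7, against 17.3%, 17.7% and 16.1% of the UMIs of other nuclei at day 28 and 10.3% and 6.75% at day 7. It was lower in the leukocyte nuclei of all 5 libraries.

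Leukocyte nuclei made up a small and variable share of every injured library. They were 7 of 1863 nuclei in day 28 mouse 1, which is 0.376% (95% exact binomial interval 0.151 to 0.773%). They were 37 of 3928 in day 28 mouse 2, or 0.942% (0.664 to 1.30%), and 32 of 1397 in day 28 mouse 3, or 2.29% (1.57 to 3.22%). At day 7 they were 70 of 3847 in mouse 1, or 1.82% (1.42 to 2.29%), and 35 of 3587 in mouse 2, or 0.976% (0.681 to 1.35%). The lowest and the highest share were both at day 28, and the 2 day 7 values lay between them. The intervals cover counting error only. The share averaged 1.20% ± 0.984 (SD, n = 3) at day 28 and 1.40% ± 0.597 (SD, n = 2) at day 7, a difference of -0.195 percentage points (exact permutation test over libraries, two-sided, p = 0.8; 3 mice against 2 cannot give less than 0.1).

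The controls gave a low background. The same rule was met by 21 of 13116 control nuclei (0.160%), which were 7, 0 and 8 nuclei in the sham mice and 6 in the mouse without surgery. The sham mouse with no such nucleus had shallow nuclei, at a median of 668 UMIs. Because more UMIs give more chances to meet the rule, nuclei were also thinned to 1000 UMIs each. The share was then 0.164%, 0.318% and 1.10% in the day 28 mice, 1.03% and 0.234% in the day 7 mice, 0 in each sham mouse and 0.0336% in the mouse without surgery. This left out many shallow leukocyte nuclei, 4, 17 and 10 at day 28 and 20 and 12 at day 7. At 500 UMIs each the shares were 0.170%, 0.535% and 1.00% at day 28, 0.962% and 0.335% at day 7, 0.0657%, 0 and 0.118% in the sham mice and 0.0279% in the mouse without surgery. At both depths every injured library lay above every control. Day 28 mouse 3 and day 7 mouse 1 lay above the other 3 injured libraries at each depth.

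**Figure D1:**
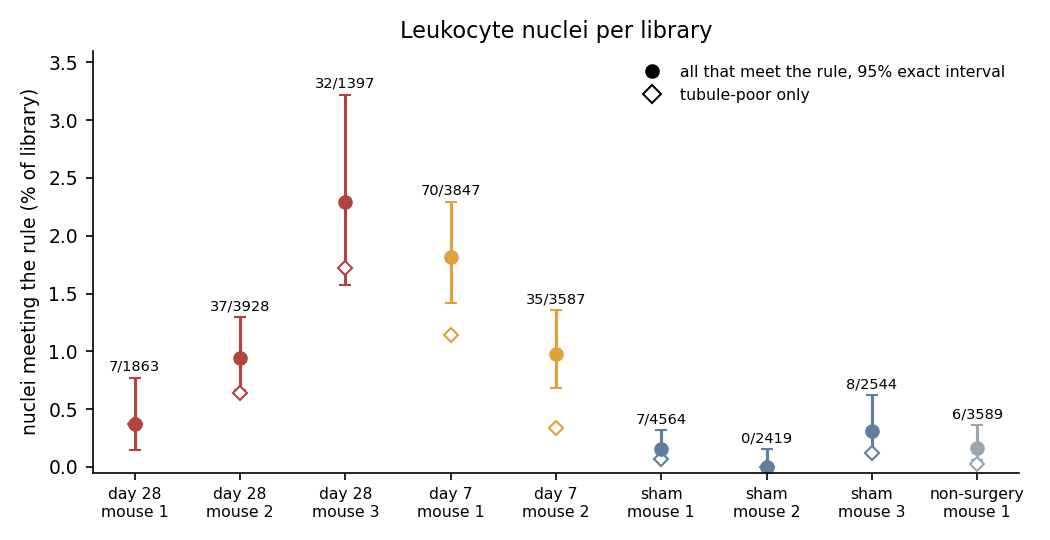
Nuclei that met the 4-gene rule as a percentage of the nuclei of each library (filled circles, with 95% exact binomial intervals and the counts above them). Open diamonds give the tubule-poor nuclei alone. Day 28 mouse 3, at 2.29%, and day 7 mouse 1, at 1.82%, were the highest, and the controls lay between 0 and 0.314%.

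A nucleus that shared its droplet with a tubule nucleus would carry both programmes. For each library, a leukocyte nucleus was called tubule-rich when its share of UMIs in 3 tubule gene lists (proximal tubule, injured tubule, thick ascending limb and distal tubule) reached 50% of the median of the other nuclei, and tubule-poor otherwise. Of the 181 nuclei, 69 were tubule-rich and 112 tubule-poor, while 12.2% of the other nuclei fell below the same limit. Tubule-rich nuclei numbered 0, 12 and 8 in the day 28 mice and 26 and 23 in the day 7 mice. They held 70.6% of all leukocyte UMIs.

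The deepest leukocyte nuclei were tubule-rich. The median was 3592 UMIs in tubule-rich and 1027 UMIs in tubule-poor nuclei, against 2501 UMIs in other nuclei. Each tubule-rich nucleus held a median of 14 pan-leukocyte UMIs and each tubule-poor nucleus 18. Relative to depth this was 36.7 per 1e4 UMIs in the tubule-rich, 159 per 1e4 in the tubule-poor and 3.05 per 1e4 in other nuclei. All 23 leukocyte nuclei with more than 2 times the median UMIs of their library were tubule-rich. Such deep nuclei were 12.7% of leukocyte nuclei and 9.84% of other nuclei. They numbered 0, 0 and 2 in the day 28 mice and 11 and 10 in the day 7 mice. Tubule-rich nuclei were thus a common class among the leukocyte nuclei. No doublet caller was run, so some results are also given without tubule-rich nuclei. The others rest on tubule-rich and tubule-poor nuclei together.

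The mix varied from mouse to mouse. Tubule-rich nuclei were 0, 32.4% and 25.0% of leukocyte nuclei in the day 28 mice and 37.1% and 65.7% in the day 7 mice. All 3 day 28 values lay below both day 7 values. The averages were 19.1% ± 17.0 (SD, n = 3) at day 28 and 51.4% ± 20.2 (SD, n = 2) at day 7 (exact permutation test, two-sided, p = 0.2, adjusted 0.55 over the 11 measures tested between days). The median depth of leukocyte nuclei relative to other nuclei of the library was 0.526, 0.391 and 0.277 at day 28, against 0.435 and 1.15 at day 7. Day 7 mouse 2, with the highest tubule-rich share, was the library where leukocyte nuclei were the deeper ones. The means of this ratio were 0.398 ± 0.125 (SD, n = 3) at day 28 and 0.791 ± 0.504 (SD, n = 2) at day 7 (exact permutation test, two-sided, p = 0.2, adjusted 0.55). Without tubule-rich nuclei they were 0.367 at day 28 and 0.359 at day 7, a difference of 0.00762.

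**Figure D2:**
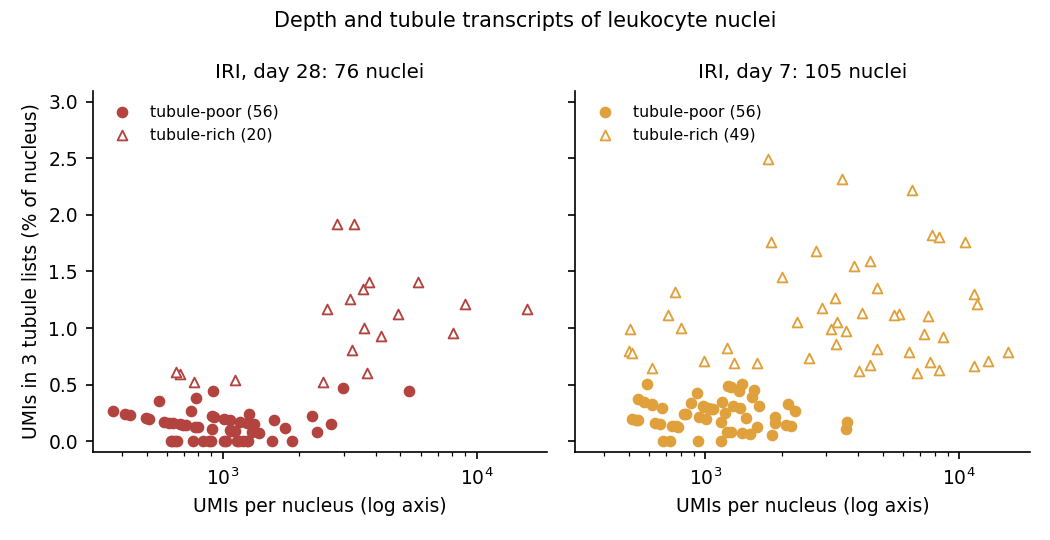
Each point is 1 leukocyte nucleus, with its UMIs on a log axis and the percentage of them in the 3 tubule lists, at day 28 (left, 76 nuclei) and day 7 (right, 105 nuclei). Triangles are tubule-rich nuclei, 20 at day 28 and 49 at day 7, and they reach the greatest depths.

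Which leukocytes these were was read from 8 lists that hold none of the 4 chosen genes, counting a nucleus for a list when it had at least 2 UMIs from at least 2 list genes. Macrophage genes were the most frequent, but the rule itself favoured them, since Adgre1 and Csf1r are macrophage genes. The table also held 17 of 17 macrophage genes and only 11 of 21 T and natural killer cell genes. The list frequencies therefore do not rank the cell types. Macrophage genes were found in 116 of 181 leukocyte nuclei (64.1%) and in 2.35% of other nuclei, and in 78 of the 112 tubule-poor nuclei. Genes of the major histocompatibility complex (MHC) class II pathway, by which macrophages, dendritic cells and B cells present antigen, were found in 72 leukocyte nuclei (39.8%) and in 2.49% of other nuclei. Of those 72, 58 also met the macrophage list.

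Lymphocyte genes were less frequent. The T and natural killer (NK) cell list was met by 33 leukocyte nuclei (18.2%), of which 13 were tubule-poor, and by 3.25% of other nuclei. Of these 33, 24 did not meet the macrophage list and 9 did. Cd3e, Cd3g and Cd3d, of the T-cell receptor complex, are not listed in the table. The genes of this list with the most UMIs in leukocyte nuclei were Skap1, a T-cell adaptor (95 UMIs, 47 of them in tubule-poor nuclei), and the transcription factors Tox (62 UMIs, 13 in tubule-poor nuclei) and Bcl11b (44 UMIs, 10 in tubule-poor nuclei), while Themis, of T-cell receptor signalling, had 23. Tox had 137 CPM (UMIs per 1e6) in leukocyte and 96.3 CPM in other nuclei, and Bcl11b 97.3 CPM in leukocyte and 47.4 CPM in other nuclei, so these 2 genes did not mark leukocyte nuclei alone. The monocyte list was met by 8 nuclei (4.42%), the dendritic list by 10 (5.52%), the B and plasma cell list by 2 and the neutrophil list by 1. The mast cell list could not be met, because Kit is the only one of its genes in the table. Several defining genes, such as Ly6g of neutrophils and Cd79a of B cells, are also not listed, so low counts of these lists say little about those cells. None of the macrophage, MHC class II and T and NK lists was met by 28 nuclei.

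Per library, the macrophage list was met by 42.9%, 59.5% and 71.9% of leukocyte nuclei at day 28 and by 68.6% and 57.1% at day 7, and the days overlapped. The means were 58.1% ± 14.6 (SD, n = 3) at day 28 and 62.9% ± 8.08 (SD, n = 2) at day 7 (exact permutation test, two-sided, p = 0.8). The MHC class II list was met by 4 of 7, 16 of 37 and 18 of 32 leukocyte nuclei at day 28 and by 27 of 70 and 7 of 35 at day 7. All day 28 libraries lay above both day 7 libraries, at 52.2% ± 7.78 (SD, n = 3) and 29.3% ± 13.1 (SD, n = 2), with p = 0.1 in the exact permutation test, the smallest this design allows (adjusted 0.55 over 11 measures). The difference of 22.9 percentage points was 20.8 without tubule-rich nuclei, where the list was met by 4 of 7, 14 of 25 and 14 of 24 nuclei at day 28 and by 21 of 44 and 3 of 12 at day 7. It was 26.9 without the deep nuclei and 23.0 under a stricter rule of 3 UMIs, but 4.98 with nuclei thinned to 500 UMIs and -5.22 with nuclei thinned to 1000 UMIs. The T and NK list was met by 1 of 7, 4 of 37 and 8 of 32 at day 28 and by 13 of 70 and 7 of 35 at day 7, again with overlap (means 16.7% ± 7.40 and 19.3% ± 1.01, exact permutation test p = 0.7).

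**Figure D3:**
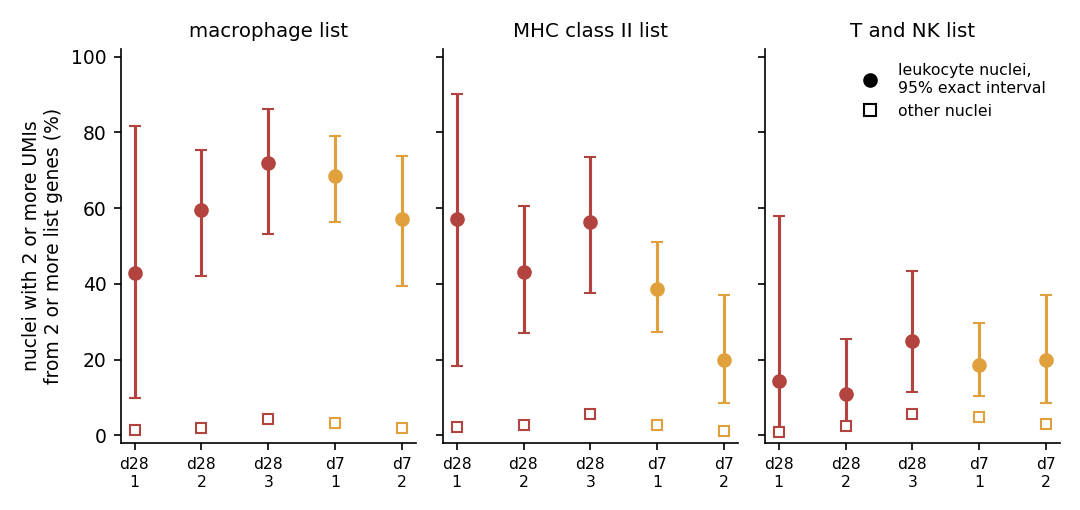
Percentage of leukocyte nuclei (circles, 95% exact binomial intervals) and of other nuclei (squares) with at least 2 UMIs from at least 2 genes of each list, per library, with day 28 (d28) left of day 7 (d7). The squares stayed at or below 5.71% in all 3 panels, and the MHC class II circles of day 28 lay above those of day 7.

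Summed per library, leukocyte nuclei were set against the other nuclei of the same library with edgeR's quasi-likelihood test, leaving out the 4 chosen genes. The differences describe the selected nuclei, since genes that travel with the 4 chosen genes had to differ. Of 9907 genes tested, 975 (9.84%) passed an adjusted p of 0.05, 534 higher (5.39%) and 441 lower (4.45%) in leukocyte nuclei. Of the 975, 713 lay on the same side in all 5 libraries. This was not counted over all genes tested, so it is a description and adds no support to the calls. Scaling by DESeq2 size factors in place of TMM factors gave 524 higher and 662 lower calls, so that 44.2% of calls were higher, against 54.8% with TMM factors. The count of calls was 1453 without day 28 mouse 1, 599 without day 28 mouse 2 and 527 without day 7 mouse 1, and 2146 without the tubule-rich nuclei (566 higher and 1580 lower).

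Ctss and Spi1 were among the 10 largest rises. Ctss, which encodes cathepsin S, a protease that trims the invariant chain of MHC class II, had 151, 492 and 212 UMIs per 1e6 (CPM) in leukocyte nuclei at day 28 and 306 and 227 CPM at day 7. In other nuclei it had 1.66, 0.603 and 0.997 CPM at day 28 and 1.04 and 0.697 CPM at day 7. The log2 difference was 8.11 (SE 0.37). Spi1, which encodes PU.1, the transcription factor that directs myeloid development and Csf1r expression, had 606, 138 and 159 CPM in leukocyte nuclei at day 28 and 226 and 179 CPM at day 7, against 1.66, 0.0862 and 0.831 CPM in other nuclei at day 28 and 0.485 and 1.05 CPM at day 7. Its log2 difference was 7.97 (SE 0.42), resting on 4, 9 and 12 UMIs at day 28 and 45 and 19 at day 7. For both genes every leukocyte sum exceeded every sum of other nuclei.

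The other 8 of the 10 largest rises were Sirpb1a (8.33), Nckap1l (8.24), Gm35154 (7.92), Ms4a6c (7.81), Cd300c2 (7.77), Mir142hg (7.74), Grap2 (7.72) and Prkcb (7.70), all as log2 differences. Nckap1l encodes a blood-cell subunit of the WAVE complex that drives actin branching, Mir142hg is the host transcript of the blood-cell microRNA miR-142, and Prkcb encodes protein kinase C beta of lymphocyte and myeloid signalling. The largest was in Sirpb1a, which belongs to the signal regulatory protein family and had 34 UMIs in leukocyte nuclei against 8 in all other nuclei.

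In 3 leukocyte lists every tested gene was higher. All 17 tested genes of the 24 on the pan-leukocyte list were higher (median log2 difference 5.97, against -0.19 for all genes tested), and among tubule-poor nuclei all 14 tested were higher (median 6.90). All 7 tested macrophage genes of 17 were higher (median 4.30). Among them were Mrc1, the mannose receptor of macrophages (6.34, SE 0.30), and C1qa, a subunit of complement C1q made by macrophages (5.15, SE 0.56). All 6 tested MHC class II genes of 10 were higher (median 3.48). They included Ciita, the master activator of the pathway (4.12, SE 0.27), H2-Aa and H2-Eb1, which encode presenting chains (4.00 and 3.74), and Cd74, the invariant chain (2.91, SE 0.28). Of 2 tested monocyte genes 1 was higher, and of 2 tested dendritic genes 1 was higher. Of 4 tested T and NK genes 2 were higher, Themis (5.32) and Skap1 (3.72), with a list median of 2.23. Without tubule-rich nuclei 1 of 3 tested T and NK genes was higher (median 0.08). The 1 monocyte and the 1 dendritic gene tested there were not called. No neutrophil or B and plasma cell gene passed the filter. A tested gene could pass the filter on low counts through its leukocyte sums, so these counts are a description.

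Most tested genes of migration receptors and of colony-stimulating factor signalling were also higher. Ccr2, the receptor that draws monocytes from the blood, had a log2 difference of 7.51 (SE 0.41), and Cx3cr1, the fractalkine receptor of resident macrophages, one of 3.82. Of 14 genes of colony-stimulating factor signalling, 8 were tested, 6 were higher and 1 was lower (median 2.54). Higher were Spi1, Btk (7.52) and Syk (5.44), which encode tyrosine kinases of immune receptors, and Plcg2 (2.60), a phospholipase downstream of them. The lower gene was Il34, one of the ligands of the Csf1r receptor, at 736 CPM in leukocyte and 1169 CPM in other nuclei (log2 difference -1.11, SE 0.35). It was named after its values were seen. Of its 333 UMIs in leukocyte nuclei, 20 were in tubule-poor nuclei.

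Functional lists were mixed. Of the phagocytosis genes 3 of 5 tested were higher, namely Fcgr2b, an inhibitory antibody receptor (3.18), and the receptors for dying cells Axl (1.77) and Mertk (1.36). Of the interferon response genes 4 of 6 were higher, among them Trim30a (3.80). Of 11 tested genes linked to macrophage repair, 4 were higher, including Apoe (2.87) and Tgfb1 (1.99). The leukocyte UMIs of Apoe were uneven, at 0, 11 and 1 at day 28 and 48 and 15 at day 7. Spp1, which encodes osteopontin and is also made by tubule cells, was lower (-1.03, SE 0.31). Of 7 tested inflammatory genes Rel, an NF-kB subunit, was higher (2.56), and Ccl2, the ligand of Ccr2, was lower (-3.33, SE 0.75), with 2 UMIs in leukocyte nuclei against 1985 in other nuclei. Of 6 tested cell-cycle genes 0 passed in either direction in edgeR.

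Tubule genes were lower, mainly through the tubule-poor nuclei. The split into tubule-rich and tubule-poor nuclei used these same lists, so lower values without the tubule-rich nuclei were fixed by that choice. Of 24 proximal tubule genes 9 were lower (median -0.85), and without the tubule-rich nuclei 18 of 24 were lower (median -3.94). Of 8 tested injured-tubule genes 5 were lower (median -1.25), and without the tubule-rich nuclei 7 were lower (median -3.82). Cubn, which encodes the proximal tubule endocytic receptor cubilin, had 51 UMIs in the leukocyte nuclei, of which 2 were in tubule-poor nuclei. Of 9 tested genes of the thick ascending limb and distal tubule 4 were lower. Atp6v0d2, a proton pump subunit also known from osteoclasts and macrophages, was higher (1.82), with 20 of its 24 UMIs in 4 tubule-poor nuclei. By library its UMIs were 0, 4 and 15 at day 28 and 5 and 0 at day 7.

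Markers of other cells of the kidney interstitium varied between libraries. Of 7 tested endothelial genes 4 were lower, and their summed level was 0.452 to 6.06 UMIs per 1e4 in the leukocyte sums and 1.53 to 2.52 per 1e4 in the other nuclei. Of 3 tested stromal genes 0 passed in edgeR, at 0.151 to 7.57 per 1e4 in leukocyte sums and 0.922 to 2.23 per 1e4 in other nuclei. In day 28 mouse 1 both lists were above other nuclei, at 6.06 against 2.52 per 1e4 for endothelial and 7.57 against 2.23 per 1e4 for stromal genes. These upper ends of the leukocyte ranges rested on few UMIs in 7 nuclei. They were 1 of Emcn, 1 of Plvap and 2 of Adgrl4 for the endothelial list, and 3 of Ebf1 and 2 of Lama2 for the stromal list. In day 28 mouse 3 the stromal list was at 2.52 against 1.93 per 1e4. The 10 largest falls were of genes with 0 UMIs in leukocyte nuclei, so only bounds could be given. Against a floor of 3 counts over the group, Lsamp was at least 4.92-fold lower, Tek, an endothelial receptor, at least 2.80-fold lower and Stx1a at least 2.78-fold lower.

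**Figure D4:**
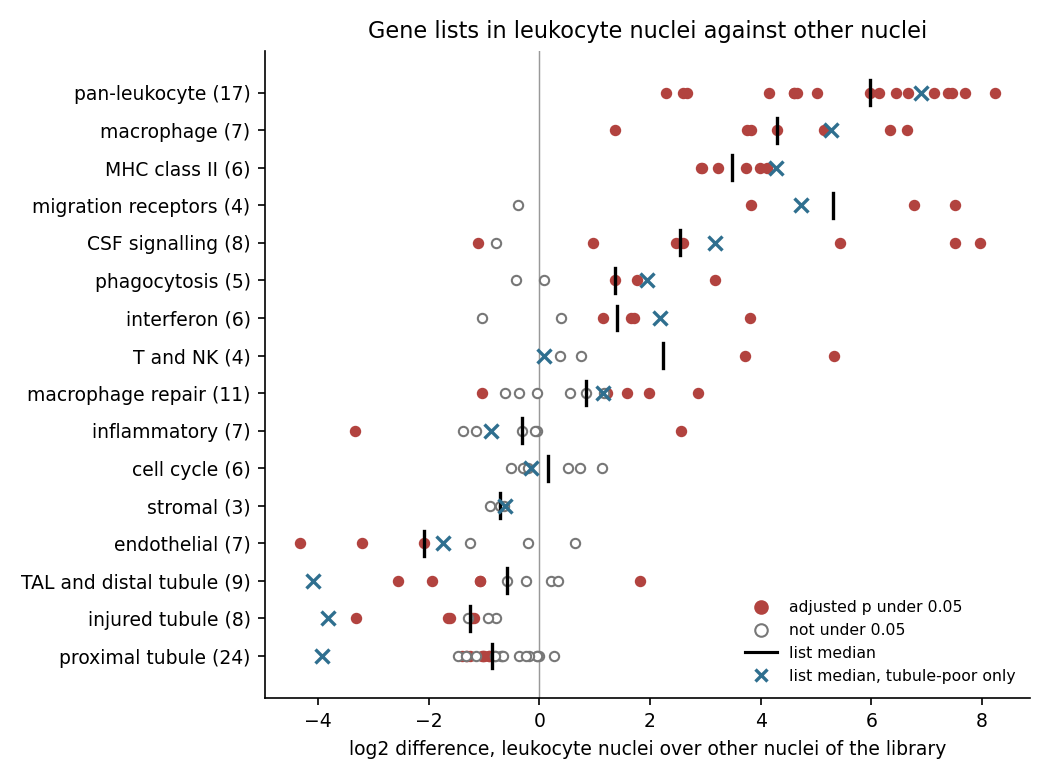
Log2 difference of leukocyte nuclei over other nuclei of the same library for each tested gene of each list, with the number tested in brackets. Tested genes without a UMI in leukocyte nuclei, such as Tek, have no point but count in the brackets and list medians. Filled points passed an adjusted p of 0.05, bars are list medians and crosses are the medians without tubule-rich nuclei. The pan-leukocyte median is 5.97, and the crosses of the tubule lists lie between -4.09 and -3.82 while their bars lie between -1.25 and -0.59. The tubule lists also defined the tubule-rich nuclei, so their crosses had to lie lower.

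A motif search was added to show promoter sequence of genes raised in leukocyte nuclei. PU.1 binds a purine-rich core within GAGGAAGT, which was searched on both strands from 250 bases before to 50 bases after each gene start in RefSeq (GRCm38.p6). Of 418 raised genes found in that table, 37 (8.85%) held the letters, compared with 3.51% of the 7716 tested genes found there and 3.69% of all 27025 genes. The motif was the only one searched and was chosen after the results were known. The following 3 promoters are shown because they hold it and belong to Inpp5d, a lipid phosphatase of leukocytes (log2 difference 5.97), Ctss, and Vav1, an exchange factor for Rac in blood cells. Each is printed 5′ to 3′ on the strand of its gene, and capitals mark the motif, which in Ctss is read on the opposite strand as ACTTCCTC.
Inpp5d, chr1:87620062-87620361, plus strand: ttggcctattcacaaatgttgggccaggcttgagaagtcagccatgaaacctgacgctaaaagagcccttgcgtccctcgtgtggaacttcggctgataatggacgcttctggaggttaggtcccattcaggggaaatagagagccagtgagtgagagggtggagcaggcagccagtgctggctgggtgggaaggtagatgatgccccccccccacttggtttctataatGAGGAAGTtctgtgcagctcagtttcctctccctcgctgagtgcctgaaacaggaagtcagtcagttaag
Ctss, chr3:95526536-95526835, plus strand: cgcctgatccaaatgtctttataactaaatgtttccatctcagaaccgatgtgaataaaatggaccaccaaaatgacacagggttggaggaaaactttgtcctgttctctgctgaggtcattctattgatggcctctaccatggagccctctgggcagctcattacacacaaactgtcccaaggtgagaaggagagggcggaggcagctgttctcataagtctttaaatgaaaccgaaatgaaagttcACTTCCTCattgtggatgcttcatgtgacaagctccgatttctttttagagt
Vav1, chr17:57278850-57279149, plus strand: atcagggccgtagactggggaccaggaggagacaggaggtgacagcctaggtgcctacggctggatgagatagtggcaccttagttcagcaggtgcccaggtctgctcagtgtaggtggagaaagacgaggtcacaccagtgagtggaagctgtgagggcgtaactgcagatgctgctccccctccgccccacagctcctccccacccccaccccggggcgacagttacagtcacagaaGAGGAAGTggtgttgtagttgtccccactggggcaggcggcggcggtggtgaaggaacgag
A match is a description of these letters and not evidence that the factor was bound.

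Between days, few genes were called in the leukocyte sums, and none of them was among the genes called higher in leukocyte nuclei. With edgeR's quasi-likelihood test on the 5 leukocyte sums, 7 of 2266 genes tested (0.309%) passed an adjusted p of 0.05, 4 higher (0.177%) and 3 lower (0.132%) at day 28. For all 7 the days did not overlap. Non-overlap was not counted over all genes tested, so it is a description and adds no support to the calls. The count was 0 without day 28 mouse 1, without day 7 mouse 1 or without day 7 mouse 2 (219, 136 and 89 at an unadjusted p under 0.05 in edgeR), 14 without day 28 mouse 2 and 18 without day 28 mouse 3. Over all 5 libraries DESeq2 called 2 genes, and 187 had an unadjusted p under 0.05 in edgeR.

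The clearest fall was of Havcr1, which encodes KIM-1, a surface protein of injured proximal tubule cells (chromosome 11, 46735080 to 46779578, GRCm38). It had 0, 4 and 1 UMIs in leukocyte nuclei at day 28 and 85 and 52 at day 7, that is 0, 61.5 and 13.3 CPM at day 28 against 427 and 491 CPM at day 7. The log2 difference was -3.66 (SE 0.59, edgeR adjusted p = 0.003). Other nuclei of the same libraries had 288, 303 and 192 CPM at day 28 and 1026 and 874 CPM at day 7, so the gene was lower at day 28 there too. In tubule-poor nuclei alone Havcr1 had 0, 3 and 1 UMIs at day 28 and 5 and 2 at day 7.

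Efna5, which encodes the ephrin-A5 ligand, had 0, 46.1 and 0 CPM at day 28 and 211 and 321 CPM at day 7 (log2 difference -3.55, SE 0.73). Sdk1, which encodes a cell adhesion protein, had 151, 30.7 and 0 CPM at day 28 and 196 and 274 CPM at day 7 (-3.35, SE 0.74). The value of Sdk1 in day 28 mouse 1 was 1 UMI. Of the UMIs of these genes in leukocyte nuclei, 4 of 79 for Efna5 and 6 of 71 for Sdk1 were in tubule-poor nuclei. Both genes were lower at day 28 than at day 7 in other nuclei of all these libraries.

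Gm26804, an unnamed transcript, had 454, 200 and 186 CPM at day 28 and 10.0 and 0 CPM at day 7 (log2 difference 4.81, SE 0.90, edgeR adjusted p = 0.0095). Gm20275 had 303, 277 and 106 CPM at day 28 and 15.1 and 9.44 CPM at day 7 (3.82, SE 0.84). These levels rested on few UMIs. They were 3, 13 and 14 at day 28 and 2 and 0 at day 7 for Gm26804. For Gm20275 they were 2, 18 and 8 at day 28 and 3 and 1 at day 7. Both genes showed the same separation of days in other nuclei, at 166 to 268 CPM at day 28 and 7.43 to 29.9 CPM at day 7 for Gm26804. Tubule-poor nuclei held 13 of the 32 leukocyte UMIs of Gm26804 and 8 of the 32 of Gm20275.

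Fgfr2, a fibroblast growth factor receptor of epithelia, had 1817, 323 and 465 CPM at day 28 and 110 and 94.4 CPM at day 7 (2.33, SE 0.49). In other nuclei Fgfr2 had 540 to 1039 CPM at day 28 and 108 to 137 CPM at day 7. Of its 100 leukocyte UMIs, 33 were in tubule-poor nuclei, and the value of day 28 mouse 1 was 12 UMIs. Tmem117, which encodes a membrane protein, had 757, 184 and 544 CPM at day 28 and 40.1 and 75.5 CPM at day 7 (2.88, SE 0.54). Of its 74 UMIs, 29 came from 1 nucleus and 15 were in tubule-poor nuclei, and the value of day 28 mouse 1 was 5 UMIs. In the test of whether the day difference differed between leukocyte and other nuclei, none of the 7 genes passed in edgeR (adjusted p 0.43 for Tmem117 and 0.97 for Sdk1, and 1 for the other 5). The unadjusted edgeR p was 0.00046 for Tmem117, 0.00593 for Sdk1, 0.00816 for Efna5 and 0.0217 for Havcr1, and from 0.271 to 0.546 for the rest. That test recovered few changed genes in simulated counts, so a miss does not show that the day differences were alike. Between days, 1 gene was called without tubule-rich nuclei, Gm20388, and without the deep nuclei none was (51 at an unadjusted p under 0.05 in edgeR).

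**Figure D5:**
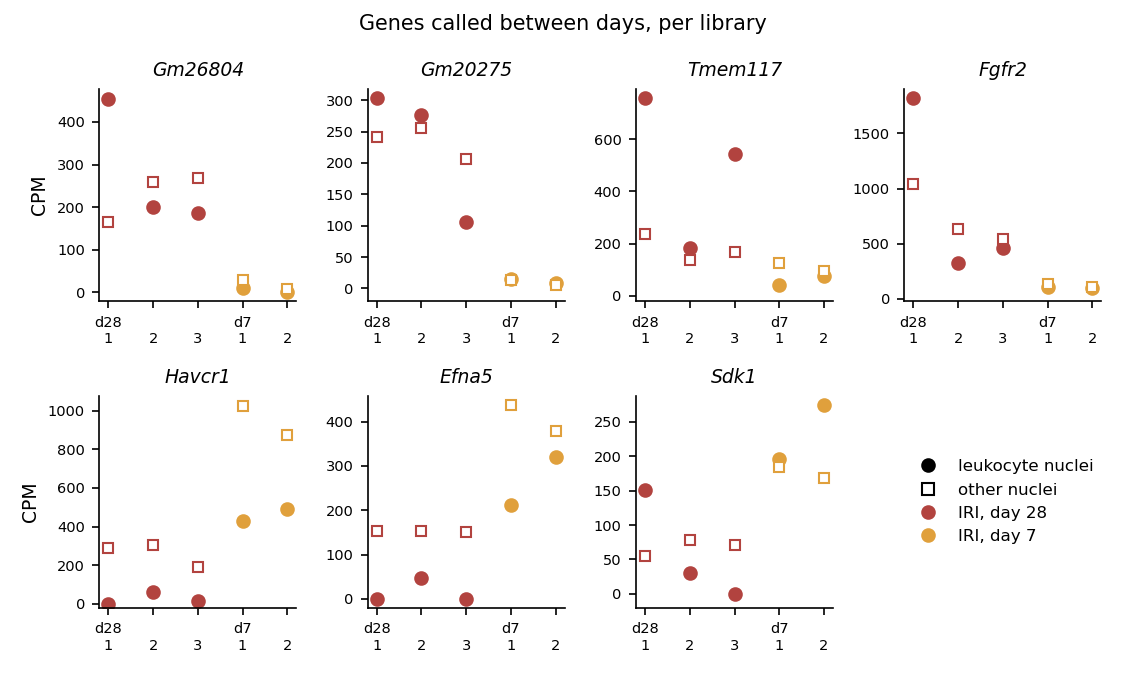
Level in CPM of the 7 genes called between days, in leukocyte nuclei (circles) and in other nuclei (squares) of each library, with day 28 (d28) left of day 7 (d7). The circles of the days do not overlap for any gene, and the squares move the same way as the circles.

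Leukocyte genes themselves gave no call between days. Of the 534 genes higher in leukocyte nuclei, 309 could be tested between days, and 0 were called by edgeR or by DESeq2, with 33 at an unadjusted p under 0.05. Their median log2 difference was 0.36 with a median SE of 0.47, against a median of -0.06 over all genes tested. Of the pan-leukocyte list 14 were tested and 0 called by either tool, with 0 at an unadjusted p under 0.05 (median 0.31). Without tubule-rich nuclei the median of this list was -0.02 over 11 genes tested, and that of the macrophage list was -0.39, against 0.37 with them. Across the leukocyte type lists together, which hold 26 tested genes, 0 were called by either tool and 3 had an unadjusted p under 0.05. Arhgap15, a Rac regulator of leukocytes with the most UMIs of its list, had 1666, 1445 and 1540 CPM at day 28 and 1470 and 953 CPM at day 7 (log2 difference 0.29, SE 0.49, and -0.35 without tubule-rich nuclei), and the days overlapped. A miss at these depths does not show that the days were alike.

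Ccr2, 2 MHC class II genes and Mrc1 serve as examples of genes that were not called. Ccr2 had 1666, 261 and 226 CPM at day 28 and 136 and 18.9 CPM at day 7, with 11, 17 and 17 UMIs and 27 and 2 UMIs (log2 difference 2.01, SE 0.60, edgeR adjusted p = 0.14). H2-Eb1 had 303, 108 and 345 CPM at day 28 and 120 and 66.1 CPM at day 7 (1.27, SE 0.50, edgeR adjusted p = 0.42), and Ciita had 606, 415 and 398 CPM and 296 and 151 CPM (0.88, SE 0.41, edgeR adjusted p = 0.56). Of the 4 MHC class II genes tested 3 had a positive difference, and H2-Aa had -0.37 (SE 0.72). As a description only, Ccr2 and Ciita did not overlap between days, and H2-Eb1 did. Mrc1 had 606, 354 and 385 CPM at day 28 and 341 and 208 CPM at day 7 (0.48, SE 0.41, edgeR adjusted p = 0.81). Without tubule-rich nuclei the difference was 1.79 for Ccr2, 0.19 for Ciita and -0.39 for Mrc1, and H2-Eb1 was not tested.

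Proximal tubule and injured-tubule transcripts in the leukocyte nuclei were lower at day 28 than at day 7, and their part in these results was not tested. Proximal tubule genes took 0.0606%, 0.377% and 0.556% of leukocyte UMIs at day 28 and 0.575% and 0.614% at day 7. Injured-tubule genes took 0, 0.180% and 0.150% at day 28 and 0.231% and 0.251% at day 7. For both lists the days did not overlap. Genes of the thick ascending limb and distal tubule took 0.0303%, 0.0953% and 0.117% at day 28 and 0.0878% and 0.107% at day 7, with overlap. In other nuclei injured-tubule genes were also lower at day 28, at 0.297%, 0.324% and 0.332% against 0.435% and 0.405% at day 7. Proximal tubule genes overlapped there. Of 11 proximal tubule genes tested between days 0 were called by edgeR or DESeq2 and 3 had an unadjusted p under 0.05 (median log2 difference -0.47). Among them Gpx3, a secreted glutathione peroxidase of the proximal tubule, had 0, 338 and 93.0 CPM at day 28 and 652 and 1104 CPM at day 7 (-2.13, SE 0.53, edgeR adjusted p = 0.085).

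The day difference of the leukocyte sums was also tested against that of the other nuclei of the same libraries, as an interaction of class and day in edgeR. Of 12259 genes tested, 5 (0.0408%) passed an adjusted p of 0.05, 2 with a higher difference in leukocyte nuclei (0.0163%) and 3 with a lower one (0.0245%), and 490 had an unadjusted p under 0.05. The count was 13 without day 28 mouse 1, 1 without day 28 mouse 3 and 0 without day 7 mouse 1 or day 7 mouse 2 (253 and 285 at an unadjusted p under 0.05 in edgeR), and DESeq2 called 0 (182 at an unadjusted p under 0.05). Rtn1, which encodes a reticulon of the endoplasmic reticulum, had 3, 15 and 18 UMIs in leukocyte nuclei at day 28 and 58 and 13 at day 7. In other nuclei it had 190, 1287 and 732 UMIs at day 28 and 265 and 123 at day 7. The difference of the day effects was -2.73 on the log2 scale (SE 0.50, edgeR adjusted p = 0.00029), and 78 of its 107 leukocyte UMIs were in tubule-poor nuclei. The other 4 genes were Gpnmb, Dkk2, Phactr1 and Igf2bp3, and each had a large part of its leukocyte UMIs in single nuclei or few UMIs in all. Gpnmb, a glycoprotein of lipid-laden macrophages, owed 114 of its 117 UMIs to 1 tubule-poor nucleus of day 28 mouse 3.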

How the data were processed

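The authors deposited raw UMI counts per gene and nucleus in 2 tables, with 19342 genes for the injured mice and 17455 for the controls. The submitters' processing notes name Seurat, STAR and Cell Ranger with build mm10. Tool versions, strand handling and the kit of each library were not given in the sources used here. The barcode prefixes, set beside those of the v2 and v3 kits, gave the kit reading. No deposited cell type annotation was used, and doublets were gated at the sorter, per the labels. Reads of overlapping or antisense genes may not be told apart.

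The rule was applied to raw counts, and counts were summed per library and class. The test between sums was that of edgeR 4.0.16, run in R 4.3.3 (filterByExpr, TMM, quasi-likelihood test, Benjamini-Hochberg adjustment over all genes tested, threshold 0.05), with the library as a block between classes. DESeq2 1.42.0 was an alternative. Shares were compared by exact permutation tests over libraries, and intervals are Clopper-Pearson at 95% from scipy 1.17.1. The fits were tested on simulated counts, in which few changed genes were recovered by the interaction of class and day. Controls entered no test. Each mouse gave 1 library, so p-values measure the spread between mice.

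Named genes were the 10 largest rises and falls among called genes that did not overlap between groups, and up to 4 called or 3 abundant genes per list, of which some are not reported here. The members and lists were chosen with earlier results of these data known. After the values were seen, Gpnmb and Phactr1, which overlapped, Il34 between classes, Gm20388, the motif and the promoters were chosen. List genes in the interaction are given as called or not, since their signs varied between settings. Gene coordinates are from GENCODE and promoters from RefSeq, both on GRCm38, the assembly of mm10.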

Additional observations from a re-analysis of the deposited data

Results flagged for a closer look

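For 5 genes the difference between day 28 and day 7 in leukocyte nuclei differed from that in the other nuclei of the same libraries (interaction in edgeR, adjusted p under 0.05). The values are given with no cause.

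Gpnmb had a difference of 5.99 on the log2 scale (SE 0.97). Its leukocyte UMIs were 0, 0 and 114 at day 28 and 2 and 1 at day 7, and those of other nuclei 4, 7 and 7 at day 28 and 25 and 18 at day 7. All 114 lay in 1 nucleus of day 28 mouse 3, and without that library the difference was -7.28. Rtn1 had a difference of -2.73 (SE 0.50).

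Dkk2, which encodes a Wnt inhibitor, had a difference of 3.25 (SE 0.71). Its leukocyte UMIs were 1, 5 and 20 at day 28 and 5 and 3 at day 7, against 317, 1340 and 464 in other nuclei at day 28 and 3092 and 821 at day 7. One nucleus held 13 of its 34 leukocyte UMIs.

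Phactr1, which encodes a regulator of actin and protein phosphatase, had a difference of -2.67 (SE 0.59). Its leukocyte UMIs were 7, 4 and 2 at day 28 and 99 and 13 at day 7, and 79 of the 125 lay in 1 nucleus. The difference was 0.89 without tubule-rich nuclei and 0.38 without deep nuclei. Igf2bp3, which encodes an RNA-binding protein, had a difference of -4.30 (SE 0.97) on 3, 0 and 1 UMIs at day 28 and 7 and 5 at day 7.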

How the results depend on the processing

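The genes called between days in leukocyte sums numbered 7, and 22 with no filter, 2 with DESeq2, 1 without tubule-rich nuclei and 0 without deep nuclei. With the barcode set as a term 13 were called. That term fits day 28 mouse 1 alone, so barcode set and mouse cannot be told apart, and leaving that mouse out gave 0. Leaving out 1 library gave 0 to 18. Between classes the 975 calls became 1532 with no filter, 2146 without tubule-rich nuclei and 1583 without deep nuclei, and 527 to 1453 with 1 library left out. The 5 interaction calls became 0 with DESeq2, 2 without tubule-rich nuclei, 2 without deep nuclei, 0 with the replicate block and 0 to 13 with 1 library left out. Where a day kept 1 library, that library is assumed to vary like those of the other day.

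Signs of uncalled day differences turned at several settings. Without tubule-rich nuclei the log2 difference was -0.349 for Arhgap15, -0.395 for Fyb, -0.39 for Mrc1, -0.534 for Syk, -0.0964 for Tbxas1 and -0.329 for Trim30a, and that of Diaph3 between classes was -0.156. Without deep nuclei it was -0.202 for Arhgap15, -0.0609 for Fyb, -0.194 for Mrc1, -0.428 for Syk, -0.229 for Trim30a, 0.325 for Il34 and 0.00328 for Slc4a4. With no filter it was -0.0206 for Arhgap15 and -0.203 for Syk. The stricter rule, at 3 UMIs, gave -0.00473 for Cd74, 0.344 for Il34 and -0.203 for Syk. Cbl had 0.0128 with DESeq2 size factors, 0.00794 with DESeq2 and 0.00571 with the barcode term, which gave -0.146 for Syk. With 1 library left out Arhgap15 ranged from -0.0793 to 0.57, Lyn from -0.733 to 0.0713, Cbl from -0.0726 to 0.0519, Syk from -0.107 to 0.24 and Slc12a1 from -0.233 to 1.09. In the interaction Gpnmb ranged from -7.28 to 6.92, and Phactr1 was 0.885 without tubule-rich and 0.376 without deep nuclei.

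The day difference in the share of leukocyte nuclei was 0.171 percentage points without tubule-rich nuclei, 0.0397 without deep nuclei and -0.739 to 0.227 with 1 library left out. The depth ratio differed by 0.00762 without tubule-rich nuclei. For the lists, thinning to 1000 UMIs gave 6.67 points for dendritic, -5.22 for MHC class II and 0.635 for T and NK genes, and leaving out tubule-rich nuclei gave 0.955 for dendritic and 2.63 for T and NK genes. With 1 library left out the macrophage difference ranged from -11.7 to 2.81, monocyte from -1.58 to 12.7, dendritic from -4.55 to 4.03 and T and NK from -6.74 to 0.357. The cause of these changes was not tested.

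Replicate numbers did not pair the mice, which were different animals (correlation of deviations 0.103 and 0.0827). With the replicate block 8 genes were called between days, all higher at day 28, Slc12a1 had -0.265 and Gpnmb in the interaction -6.94. The 6603 leukocyte UMIs of day 28 mouse 1 limit every comparison of days.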
